A study of Homo sapiens with 4 samples.

Results

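The genes described here are 10 components of the TGF-beta pathway, taken by symbol from a table of 60623 genes: the ligands TGFB1 and TGFB2, the receptors TGFBR1 and TGFBR2, the signal carriers SMAD2, SMAD3 and SMAD4, the inhibitory SMAD6 and SMAD7, and PMEPA1. All 10 were found in the table and all 10 passed the filter on low counts. RNA came from T24, an established human bladder cancer line, in 4 libraries. One pair was made from scramble control cells, and the other from cells labelled as overexpressing miR-146a-5p, a microRNA that the series' design text says was supplied as a mimic. The labels do not say whether libraries of a group are separate cultures, so p-values here reflect only library-to-library spread, possibly of technical origin. In bulk RNA, fewer cells expressing a gene and less RNA per cell cannot be told apart.

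TGF-beta ligands are secreted in a latent form and, once released, bind the type II receptor TGFBR2, which then phosphorylates the type I receptor TGFBR1. The active receptor phosphorylates SMAD2 and SMAD3, which join the shared partner SMAD4 and enter the nucleus to regulate transcription. The pathway also induces its own brakes: SMAD6 and SMAD7 compete at the receptors, and PMEPA1 is a membrane protein that binds SMAD2 and SMAD3 and keeps them from the receptor. In epithelial cells the pathway is known for slowing division and for raising matrix and mesenchymal genes, and in carcinomas its growth-restraining arm is often lost.

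The microRNA is shown with its seed, bases 2 to 8, in capitals. The segments below it are 3' UTR stretches of 3 of the 10 genes, in DNA letters from GENCODE release 29 (GRCh38), with the bases that pair with the seed in capitals. They are shown because 4 of the 10 genes carry a match and these 3 are the best matches in their genes.
hsa-miR-146a-5p: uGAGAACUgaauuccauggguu
SMAD4: aaaggcagagaAGTTCTCAaagttaattca
SMAD2: gaggctgttggAGTTCTCActgacttagtg
PMEPA1: gcctagtagaaAGTTCTCgttcattggcaa

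The mature microRNA is from RefSeq (GRCh38.p14, chr5:160485372-160485393, plus strand). The SMAD4 stretch lies at chr18:51078846-51078875 on the plus strand and holds the only match in that UTR, an 8-mer (pairing with bases 2 to 8, followed by A). The SMAD2 stretch at chr18:47838748-47838777, minus strand, also holds an 8-mer. SMAD2 has 3 further 7-mers, but its annotated transcript of 34526 bases exceeds the length given for the gene in the deposited table, so not every match need lie in the RNA measured. The PMEPA1 stretch at chr20:57650066-57650095, minus strand, holds a 7-mer, and the same UTR has a further pair of 7-mers. SMAD3 has 1 7-mer, and TGFB1, TGFB2, TGFBR1, TGFBR2, SMAD6 and SMAD7 have none. A match of any of these kinds was present in 21% of the 12424 tested genes with an annotated 3' UTR. A match describes letters only and does not show binding.

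The 4 libraries held between 20290055 and 22774090 estimated counts. Between the scramble libraries 23.5% of tested genes differed over 2-fold, and between the miR-146a-5p libraries 2.71% did. Genes were sorted by transcript GC content into 5 bins of like size. In bin 1 (GC of 27.8% to 41.1%) the median log2 CPM of scramble replicate 2 minus replicate 1 was -1.55, and in bin 5 (58.1% to 75.2%) it was 0.52. Both pairs were separate libraries beyond sampling noise, with a chi-square over its degrees of freedom of 177 (scramble) and 6.97 (miR-146a-5p). T24 expressed the urothelial keratins KRT7, KRT8 and KRT18, at mean TPM of 2161, 1001 and 932 in scramble and 1876, 921 and 636 with miR-146a-5p. Of the 6 tested urothelial markers, KRT18 and KRT19 lay below both scramble libraries and EPCAM and GATA3 above. KRT19 had 35.57 and 40.98 TPM in scramble and 17.38 and 15.46 TPM with miR-146a-5p, a 2.46-fold lower level by edgeR that did not pass (unadjusted p = 0.00534, DESeq2 adjusted p = 0.0681). The epithelial cadherin CDH1 was near 0 (0, 2, 0 and 1 counts), and KRT5 and UPK3A had 0 counts throughout. Fibroblast markers summed to 3.35 and 4.0 CPM (counts scaled to the library total) in scramble and 5.76 and 6.80 CPM in miR-146a-5p libraries. Of these sums, COL1A1 made up 1.65 and 2.55 CPM in scramble and 3.62 and 3.94 CPM with miR-146a-5p. Its TPM overlapped between the groups (1.29 and 0.59 against 0.66 and 0.95). COL1A1 is also among the pathway target genes read below. COL1A2 and COL3A1 were at 12 counts or fewer in each library. Endothelial markers stayed under 1 CPM in every library, and leukocyte markers summed to between 12.6 and 17.2 CPM, with CD3E at 0.

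PMEPA1 was the member that stood out, at close to 3 times its scramble level. SMAD7 and TGFBR2 also lay above both scramble libraries in both miR-146a-5p libraries, by less, and did not pass a test over all genes. In CPM, both miR-146a-5p libraries lay between the scramble libraries for each of the other 7 genes, as for 38.9% of all tested genes, and no member was below both. On other scales this differed for SMAD3, which was below both scramble libraries in TPM and in unscaled counts, for SMAD2 in TPM and for TGFB1 in unscaled counts and TPM. In CPM, 18.0% of the 14810 genes tested lay above both scramble libraries and 36.0% were separated in either direction, so 3 of 10 separated genes is near the background. By edgeR's quasi-likelihood test, which is the main test, 0 of the 14810 genes (0%) passed an adjusted p of 0.05. Without adjustment 549 (3.71%) were under 0.05, among them PMEPA1, SMAD7 and TGFBR2. By DESeq2, 52 of 16044 genes (0.324%) passed, 44 of them higher (0.274%) and 8 lower (0.0499%), and PMEPA1 was the 1 member among them. The median log2 fold change was 0.21 over the 10 members and -0.001 over all tested genes by edgeR.

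**Figure D1:**
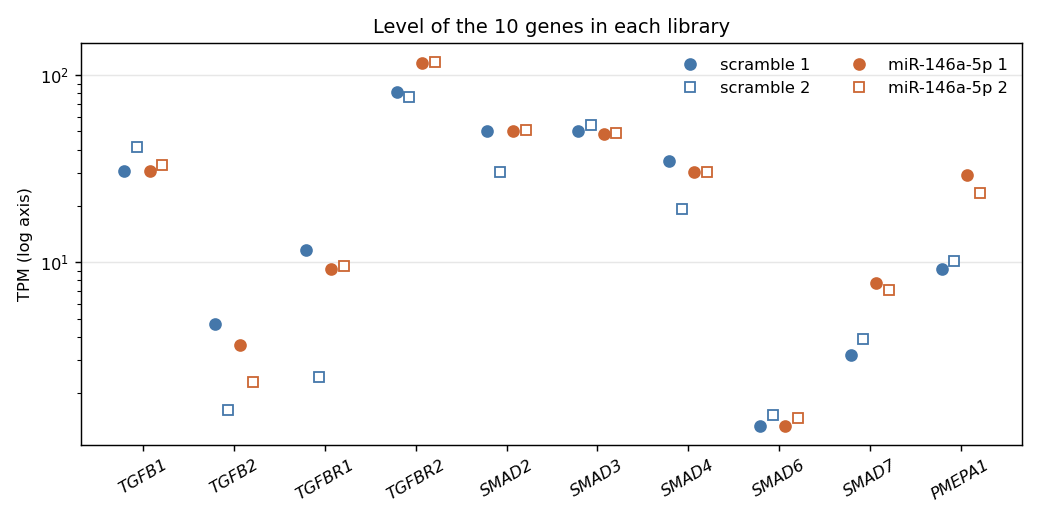
Deposited TPM (read abundance scaled for length and depth, log axis) of the 10 genes, with 1 point per library, circles for replicate 1 and squares for replicate 2. PMEPA1, SMAD7 and TGFBR2 stand higher in both miR-146a-5p libraries (orange) than in both scramble libraries (blue). PMEPA1 is at 23.41 and 29.42 TPM with miR-146a-5p against 9.23 and 10.13 TPM in scramble. SMAD2 is also higher, by hundredths over scramble replicate 1, and SMAD3 is lower. Scramble replicate 2 is the low point for TGFB2, TGFBR1, SMAD2 and SMAD4.

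Among the ligands, TGFB1, the main isoform in most epithelia, had 1370 and 2098 estimated counts in scramble replicates 1 and 2 and 1385 and 1262 with miR-146a-5p. Its TPM, which scales for length and so allows levels of different genes to be compared, was 30.87 and 41.12 in scramble and 30.63 and 32.93 with the microRNA. Scramble replicate 2 was the high value and the other 3 libraries were alike. The fitted log2 fold change was -0.28 ± 0.27 (SE, edgeR), with an unadjusted p of 0.361 and an adjusted p of 0.970. TGFB2, an isoform known from mesenchymal transitions, was far scarcer. It had 4.68 and 1.63 TPM in scramble and 3.60 and 2.30 TPM with miR-146a-5p, and its counts were 276.44, 118.74, 209 and 204.57 in the same order. The groups overlapped, and the edgeR log2 fold change was 0.17 ± 0.47 (SE, adjusted p = 0.973).

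The receptors behaved differently from one another. TGFBR2, the ligand-binding type II receptor, was the most abundant of the 10 genes in both groups. It had 81.27 and 76.72 TPM in scramble and 116.26 and 117.92 TPM with miR-146a-5p, and 5730, 6376, 8479 and 7879 counts. Both miR-146a-5p libraries were above both scramble libraries, and each pair lay close together. The edgeR log2 fold change was 0.54 ± 0.15 (SE), a 1.46-fold difference, with an unadjusted p of 0.0204 and an adjusted p of 0.970 (DESeq2 adjusted p = 0.9999). TGFBR1, the type I receptor kinase that TGFBR2 activates, had 1306 and 311 counts in scramble against 1033 and 1002 with miR-146a-5p. Its TPM was 11.62 and 2.44 against 9.17 and 9.53, so 3 libraries were near each other and scramble replicate 2 was low. The log2 CPM difference was -0.26 against scramble replicate 1 and 1.82 against replicate 2, and edgeR fitted a log2 fold change of 0.43 ± 0.71 (SE, adjusted p = 0.970). TGFBR1 transcripts have a GC content of 38.95%, in bin 1, while TGFBR2 at 47.37% is in bin 3. With offsets for GC content and length, the edgeR log2 fold change of TGFBR1 was 0.19 (adjusted p = 0.722) and that of TGFBR2 was 0.52 (adjusted p = 0.310).

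The receptor-regulated SMADs and their partner were not separated between the groups in CPM. SMAD2 had 1880.10 and 1042.15 counts in scramble and 1629.88 and 1574.46 with miR-146a-5p, again with scramble replicate 2 low. SMAD3, which binds DNA directly, had 5066 and 6244 counts in scramble and 5052 and 4911 with miR-146a-5p, and an edgeR log2 fold change of -0.07 ± 0.18 (SE, adjusted p = 0.973). In CPM SMAD3 was at 226 and 274 in scramble and 234 and 242 with miR-146a-5p, so the groups overlapped once counts were scaled to library totals. In TPM, for SMAD2 both miR-146a-5p libraries (50.15 and 50.72 TPM) were above both scramble libraries (50.11 and 30.31 TPM), by a margin of hundredths over scramble replicate 1, and for SMAD3 both (48.43 and 49.30 TPM) were below (50.11 and 54.13 TPM). Whether the SMAD2 and SMAD3 groups overlap thus differed between CPM and TPM.

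SMAD4, the shared partner and a gene often reported as a target of this microRNA, had 34.78 and 19.26 TPM in scramble and 30.35 and 30.34 TPM with miR-146a-5p. Its counts were 1964.14 and 1293.74 against 1614 and 1608.55. The miR-146a-5p libraries agreed closely and lay between the scramble libraries, 0.19 below replicate 1 on the log2 scale (difference of -0.19) and 0.44 above replicate 2. The edgeR log2 fold change was 0.09 ± 0.28 (SE, adjusted p = 0.973). The 8-mer printed above was thus present in a transcript whose direction depended on the scramble library used. With offsets for GC content and length the log2 fold change was -0.36 for SMAD4 (adjusted p = 0.640) and -0.33 for SMAD2 (adjusted p = 0.769), the other gene with an 8-mer, and neither passed. With the same offsets TGFB2, which has no match, was at -0.25. SMAD3, with 1 match, was at -0.09 and PMEPA1, with 3, at 1.58. The other genes without a match were TGFB1 at -0.09, SMAD6 at 0.09, TGFBR1 at 0.19, TGFBR2 at 0.52 and SMAD7 at 0.99. SMAD4 and SMAD2 were thus the lowest of the members with these offsets, and PMEPA1 the highest. A relation of these values to seed matches was not tested. SMAD4 shares 967 exonic bases with AC091551.1, a gene model on the same strand, which had 18.16, 11.29, 6 and 5.53 counts, small beside those of SMAD4. It is named for its position.

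The inhibitory SMADs differed from each other in level and in pattern. SMAD7, which blocks the type I receptor and recruits ubiquitin ligases to it, had 160 and 226 counts in scramble and 328 and 324 with miR-146a-5p. Its TPM was 3.19 and 3.89 against 7.71 and 7.08, so both miR-146a-5p libraries were above both scramble libraries. edgeR put the log2 fold change at 0.87 ± 0.26 (SE), a 1.83-fold difference, with an unadjusted p of 0.0275 and an adjusted p of 0.970. DESeq2 gave an unadjusted p of 0.0263 and an adjusted p of 0.9999. SMAD6, better known as a brake on BMP signalling, was the least abundant of the 10 genes and overlapped between groups, with 98 and 131 counts in scramble and 99 and 106 with miR-146a-5p (1.33, 1.52, 1.33 and 1.47 TPM). Its edgeR log2 fold change was -0.05 ± 0.28 (SE, adjusted p = 0.986).

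PMEPA1 was the 1 member that rose by DESeq2. Scramble replicates 1 and 2 had 357 and 484 estimated counts of it, and the miR-146a-5p libraries had 1204.36 and 1063. The groups were well apart, and both miR-146a-5p libraries were higher. The level went from 18.6 ± 3.75 to 54.1 ± 2.47 CPM (SD, n = 2 each), and from 9.68 ± 0.636 to 26.4 ± 4.25 TPM. By DESeq2 the increase was 2.88-fold (log2 1.52 ± 0.35 (SE), adjusted p = 0.00619), and the authors' deposited table lists 1.52 with an adjusted p of 0.00633. edgeR gave 1.54 ± 0.24 (SE) with an unadjusted p of 0.00255 and an adjusted p of 0.959. The call was lost in DESeq2 without either miR-146a-5p library, as were nearly all other calls, while the log2 fold changes were 1.47 and 1.57. The difference was 1.76 against scramble replicate 1 alone and 1.34 against replicate 2 alone. PMEPA1 carries 3 matches to the seed in its 3' UTR, the first of them printed above.

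PMEPA1 spans chr20:57648392-57711536 on the minus strand (GRCh38, GENCODE release 29). NKILA, a noncoding RNA on the opposite strand that is known to bind NF-kB and mask the phosphorylation sites of its inhibitor, shares 343 exonic bases with it. NKILA had 9 and 8 counts in scramble and 28.64 and 28 with miR-146a-5p, above both scramble libraries. It did not pass edgeR (log2 fold change 1.84 ± 0.40 (SE), adjusted p = 0.970) or DESeq2 (adjusted p = 0.9999), and it is named after its values were seen. The labels do not state a strand-specific kit or count, and without strand, reads from the shared bases cannot be told apart. The NKILA counts are small beside those of PMEPA1. TGFB1 likewise shares 215 exonic bases with HNRNPUL1 on the opposite strand, and TGFB2 shares 1371 with TGFB2-OT1 on the same strand (14.56 and 16.26 counts in scramble, 20 and 16.43 with miR-146a-5p). SMAD3 shares 182 with AC087482.1, which had between 1 and 8 counts.

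**Figure D2:**
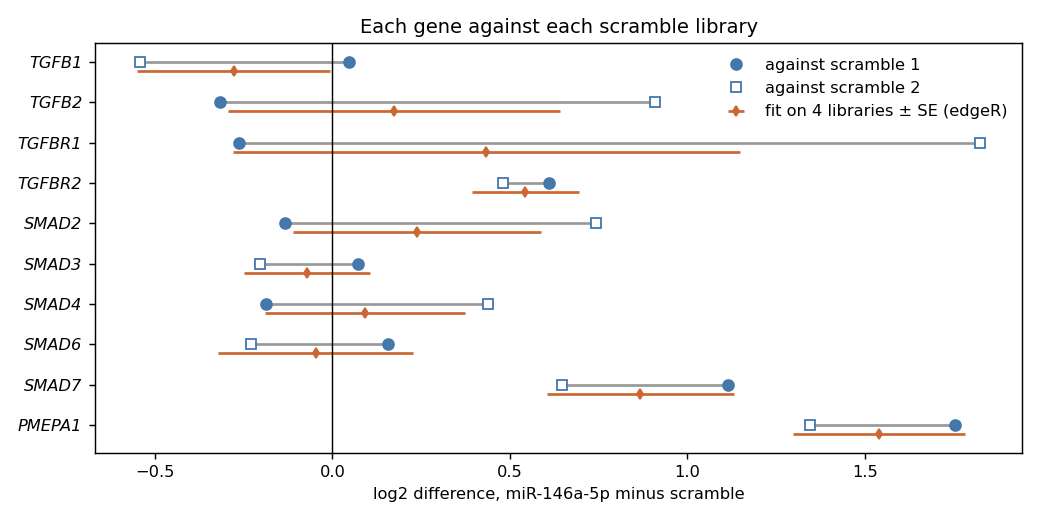
Mean of the log2 CPM values of both miR-146a-5p libraries minus the log2 CPM of scramble replicate 1 (filled circles) or replicate 2 (open squares). The edgeR log2 fold change from all 4 libraries and its SE are below each (orange). TGFBR2, SMAD7 and PMEPA1 lie right of 0 against either library, PMEPA1 at 1.34 and 1.76, while the other 7 genes lie on opposite sides of 0.

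Within the scramble pair, the direction of the difference among the 10 genes went with GC content. The 4 members in GC bins 1 and 2, TGFB2, TGFBR1, SMAD2 and SMAD4 (38.89% to 41.13%), were all lower in scramble replicate 2 than in replicate 1, by log2 differences of -1.22, -2.09, -0.88 and -0.63. The 6 members of higher GC content were all higher in replicate 2, by 0.13 for TGFBR2 up to 0.59 for TGFB1. Scramble replicate 2 was also below replicate 1 in 93.3% of all tested genes of bin 1 and 74.5% of bin 2. In bins 3, 4 and 5, which hold the other 6 members, replicate 2 was below replicate 1 in only 34.4%, 13.5% and 6.74%. Both directions among the members were thus those of most genes of like GC content. In the miR-146a-5p pair no member differed by more than 0.16 in log2 CPM, and the median absolute difference was 0.04, against 0.53 in the scramble pair.

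Leaving out scramble replicate 2 turned the sign of the 7 overlapping genes and kept that of TGFBR2, SMAD7 and PMEPA1. This follows from their positions against scramble replicate 1, given above, and is not separate support. A lone scramble library is then assumed to vary as the miR-146a-5p pair does, which makes its p-values small. Without it, edgeR called 3 of the 10 genes higher and 0 lower, where 10.1% of all genes were called higher and 11.7% lower. The 3 were PMEPA1 (1.78, adjusted p = 7.06e-45), SMAD7 (1.14, adjusted p = 5.35e-10) and TGFBR2 (0.62, adjusted p = 1.89e-10), each given with its log2 fold change. Without scramble replicate 1, edgeR called 7 higher and 2 lower, where 28.5% and 26.4% of all genes were called. TGFBR1 was then at 1.83 (adjusted p = 1.89e-46) and TGFB1 at -0.54. DESeq2 without scramble replicate 2 called 3 members higher and 0 lower (3.97% and 5.67% of all genes), and without replicate 1 it called 6 higher and 1 lower (22.5% and 15.5%).

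**Figure D3:**
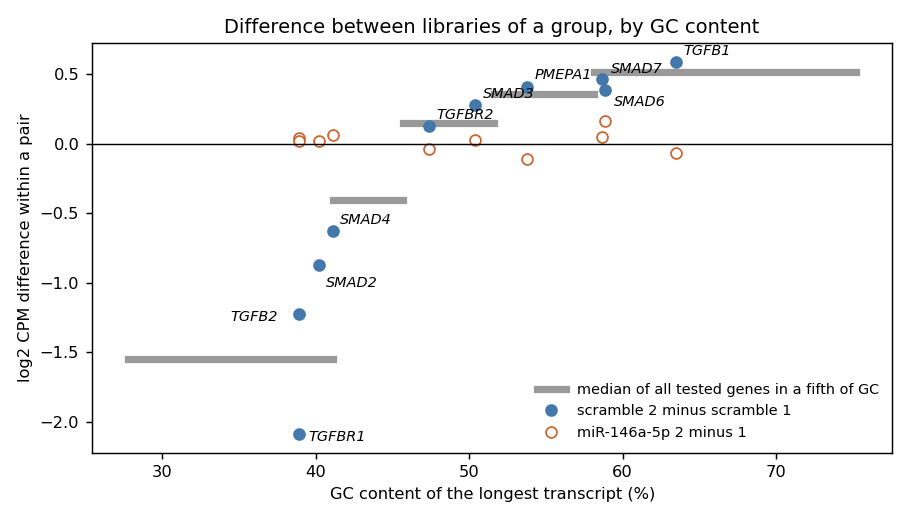
Log2 CPM difference between the libraries of a group (replicate 2 minus replicate 1) against the GC content of each gene's longest transcript, for the scramble pair (filled) and the miR-146a-5p pair (open). Grey bars are medians of the scramble difference over all tested genes in each GC bin. TGFBR1 is lowest at -2.09, while the largest miR-146a-5p difference is 0.16 (SMAD6).

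In TPM, the order of the 10 genes was the same in both groups but for SMAD2 and SMAD3, which changed places. With miR-146a-5p it ran from TGFBR2 at 117.09 through SMAD2 (50.4), SMAD3 (48.9), TGFB1 (31.8), SMAD4 (30.3), PMEPA1 (26.4), TGFBR1 (9.35), SMAD7 (7.40) and TGFB2 (2.95) to SMAD6 at 1.40 mean TPM. No neighbours overlapped over the pair of miR-146a-5p libraries. In scramble, PMEPA1 (9.23 to 10.13 TPM) was level with TGFBR1 (2.44 to 11.62 TPM) and below SMAD4 (19.26 to 34.78 TPM). Ranges of SMAD3, SMAD2, TGFB1 and SMAD4 overlapped in turn there, as did those of PMEPA1, TGFBR1, SMAD7 and TGFB2. With the microRNA, PMEPA1 ranged from 23.41 to 29.42 TPM, next to SMAD4.

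The rest of the pathway was read from a list of 74 further genes, of which 62 were tested. By DESeq2, 3 of the 62 rose and 0 fell, where 0.274% and 0.0499% of all genes did. By edgeR 0 passed in either direction, as over all genes, and 7 had an unadjusted p under 0.05, where 3.71% of all tested genes did. The edgeR median log2 fold change of the list was 0.08. In 17 of the 62 both miR-146a-5p libraries exceeded both scramble libraries and in 13 they fell short of both, where 18.0% and 17.9% of all tested genes did so.

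The 3 that rose were all among the 18 tested target genes. As with PMEPA1, all 3 calls were lost in DESeq2 without either miR-146a-5p library, as were nearly all calls over the whole table. FN1, which encodes fibronectin, had 22176 and 28223.01 counts in scramble and 89501 and 84470 with miR-146a-5p, a 3.69-fold increase. TAGLN, an actin-binding protein of contractile cells, had 212.73 and 200.51 against 751.69 and 625.71 counts (3.54-fold). TGFBI, a secreted matrix protein named for its induction by TGF-beta, had 333 and 446 against 1147 and 957 counts (2.88-fold, adjusted p = 0.00752). The summed fibroblast markers, which include the listed target COL1A1, were also higher in the miR-146a-5p libraries. Of the urothelial markers, KRT18 and KRT19 were lower and EPCAM and GATA3 higher, as given above. The part of these markers in the target values was not tested. Of the 18 targets, 12 lay above both scramble libraries, where the background is 18.0%, and 2 below both, where it is 17.9%. Their median log2 fold change was 0.31. The targets, FN1, TAGLN and TGFBI among them, were listed with earlier results of these data known. The counts are therefore a description and not independent support for raised targets. ID1, an inhibitor of DNA-binding helix-loop-helix factors, was at 261.32 and 322.90 TPM in scramble and 470.65 and 428.79 TPM with the microRNA, and did not pass. CCN2, a connective tissue growth factor and a common readout of TGF-beta, was lower in both miR-146a-5p libraries (2305 and 3274.99 against 1552 and 1554 counts) and did not pass (edgeR unadjusted p = 0.0357). CCN2 was named after its values were seen.

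**Figure D4:**
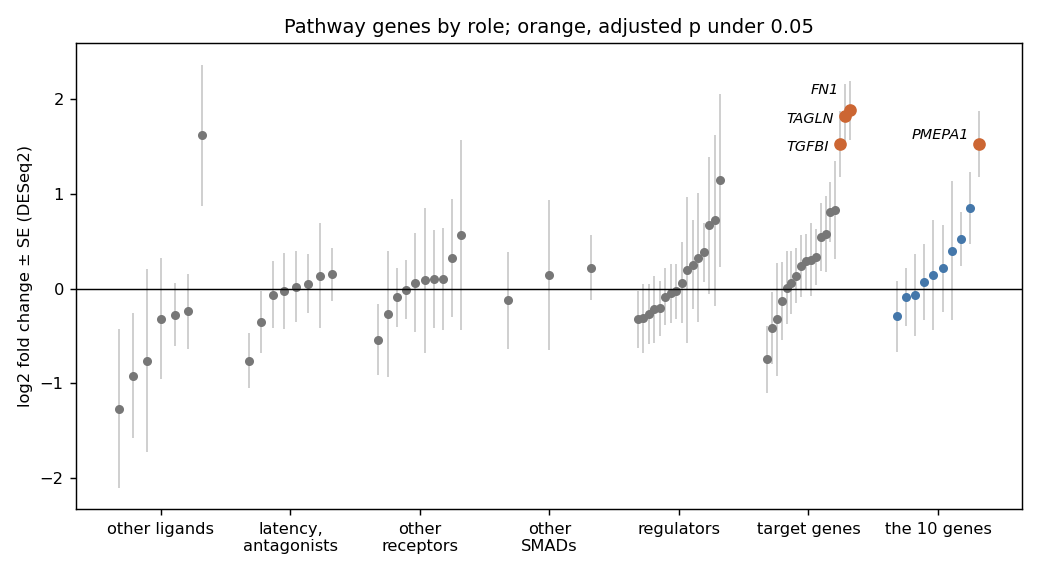
DESeq2 log2 fold change ± SE of the 62 tested pathway genes, by role, and of the 10 genes at the right. FN1, TAGLN, TGFBI and PMEPA1 (orange) passed an adjusted p of 0.05, and no gene passed below 0.

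Of the 7 other ligands tested, 1 lay above and 4 below both scramble libraries. For this and the other counts by role, the shares of all tested genes were 18.0% above and 17.9% below. INHBA, the activin A subunit, had 13.10 and 3.49 TPM in scramble and 22.51 and 23.81 TPM with miR-146a-5p. It was above both scramble libraries, but those were far apart, and it did not pass (edgeR log2 fold change 1.65, unadjusted p = 0.0885). INHBA is in GC bin 1, as is TGFBR1. INHBB, the related activin B subunit, had 7.37, 9.93, 7.49 and 7.85 TPM in the same order of libraries. Of 8 tested latency proteins and antagonists, 1 lay above and 2 below both scramble libraries. The most abundant were THBS1, an activator of latent TGF-beta (57.41 and 50.83 TPM in scramble, 62.38 and 64.87 TPM with the microRNA), and LTBP2, a latent TGF-beta binding protein (45.36 and 47.63 against 46.84 and 52.34 TPM).

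The 10 tested receptors outside the members included 0 above and 1 below both scramble libraries, where 18.0% and 17.9% of all tested genes were. That was ENG, the co-receptor endoglin, at 55.43 and 74.97 TPM in scramble and 45.29 and 49.24 TPM with miR-146a-5p. The BMP receptor BMPR1A had 25.68 and 8.01 against 20.34 and 22.89 TPM. Of the other SMADs, SMAD1, which carries BMP signals, had 17.65 and 11.51 against 16.42 and 17.21 TPM. Its close relative SMAD5 had 16.15 and 4.41 against 15.99 and 10.98 TPM. Of 16 tested regulators, 2 lay above and 4 below both scramble libraries, to be read beside the same shares. STRAP, a protein that steadies SMAD7 at the receptor, had 119.94 and 106.78 against 98.40 and 105.93 TPM. SMURF2, a ubiquitin ligase that SMAD7 brings to the receptor, had 94.29 and 51.00 against 89.52 and 90.97 TPM. None of these receptors, SMADs and regulators passed either test. In all 12 pathway genes of GC bin 1, scramble replicate 2 was below replicate 1, as in 93.3% of all tested genes of that bin.

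Genes whose pattern over the 4 libraries was most like that of PMEPA1 were sought by the Euclidean distance between log2 CPM values centred on each gene's mean, among 9408 genes of at least 10 CPM. The nearest was TGFBI, at a distance of 0.059. ANXA8, an annexin (0.10), ANXA8L1 (0.212) and TNC, the matrix protein tenascin C (0.241), were also among the nearest. ANXA8 and ANXA8L1 are near-identical copies, so their counts of 802.76, 998.41, 2580.47 and 2197.62 and of 239.63, 355.85, 956.61 and 702.68 may be shared between them. These 4 passed DESeq2, as 0.324% of all genes did, with adjusted p from 0.00197 to 0.0374 and log2 fold changes of 1.5 to 1.61. They were picked for likeness to PMEPA1, which itself passed, so like fold changes and calls follow from the selection. With 4 libraries such a likeness is a description of level and direction only.

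The promoter windows of the 10 genes in RefSeq (GRCh38.p14, 250 bases before to 50 after a start, with up to 8 windows per gene) were searched for GTCTAGAC, the palindrome that SMAD3 and SMAD4 are known to bind, which reads the same on both strands. It was present in 71 of 35116 such windows (0.202%), and among the 10 genes in the single window of SMAD6 alone. It is shown, in capitals, because no other member's window holds it, although SMAD6 overlapped between groups.
SMAD6: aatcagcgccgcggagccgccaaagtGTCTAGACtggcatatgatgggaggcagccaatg

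This stretch is at chr15:66702198-66702257 on the plus strand, and the palindrome begins 12 bases before the start. The 4 windows of PMEPA1 and the 3 of SMAD7 did not hold these letters, which says nothing about binding elsewhere.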

How the data were processed

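Per the submitters' processing notes, cutadapt 1.9.1, HISAT2 2.0.1, HTSeq 0.6.1, DESeq2 and build hg19 were used, with no role or order given. The authors deposited estimated counts per gene and library, of which 34.3% were not whole in genes detected throughout, TPM per library and as group means, and a comparison with a fold ratio, its log2 value, and a p-value and adjusted p-value. The counting tool behind fractional counts and the annotation release are not given in the sources used here.

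Estimated counts were rounded. Genes were kept by filterByExpr (minimum count 10, minimum total 15), and 14810 were tested with edgeR 4.0.16 (quasi-likelihood, TMM, group as the only term, two-sided, Benjamini-Hochberg over all genes, R 4.3.3). The SE of an edgeR log2 fold change was derived from its F statistic. DESeq2 1.42.0 was run on the whole table (filtering target 0.1), and limma 3.58.1 gave voom. Log2 CPM used a prior count of 2. With 2 libraries against 2, an exact permutation test cannot go below 0.333 and was not used. Tests were checked on simulated counts. GC content is that of each gene's longest transcript in GENCODE release 29, which covers 99.1% of tested genes. Named genes are the 10 members, listed pathway genes past a threshold, the 2 most abundant per role and the 5 most like PMEPA1, with exceptions stated; a gene that the rule names and some values of other listed genes are not reported here. Members and lists were chosen with earlier results of these data known. Alternatives were other tests, scaling, filter, offsets, a replicate block and each library left out.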

Additional observations from a re-analysis of the deposited data

How the results depend on the processing

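With 4 libraries edgeR called 0 genes, 0 of the pathway list and 0 members, and so did limma-voom, other scaling factors, library totals alone, no low-count filter, and GC and length offsets. DESeq2 called 44 genes higher and 8 lower, and 3 higher in the pathway list. The labels do not say that replicate numbers mark shared cultures, and the replicate 1 minus replicate 2 differences of the pairs were correlated at -0.145 across genes. The fit with the number as a replicate block called 5 genes higher, 1 of them in the pathway list, and no member. Leaving out a library in turn, edgeR called 6 to 4369 genes higher and 2 to 4052 lower, and in the pathway list 1 to 24 higher and 0 to 15 lower. The same in DESeq2, added after seeing the data, called 1 to 3166 higher and 1 to 2183 lower, and in the list 0 to 17 and 0 to 7 (456, 651, 9 and 5 without scramble replicate 2). The extremes are without scramble replicate 1 and without a miR-146a-5p library.

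Signs that turned were, without scramble replicate 2 (edgeR, then DESeq2), TGFB1 0.06 and 0.049, TGFB2 -0.30 and -0.32, TGFBR1 -0.25 and -0.26, SMAD2 -0.12 and -0.13, SMAD3 0.086 and 0.076, SMAD4 -0.17 and -0.18, and SMAD6 0.18 and 0.17. Without scramble replicate 1 the edgeR values were TGFB1 -0.54, TGFB2 0.92, TGFBR1 1.83, SMAD2 0.74, SMAD3 -0.20, SMAD4 0.44 and SMAD6 -0.23. Without miR-146a-5p replicate 1, SMAD6 turned to 0.05 and 0.019. With GC and length offsets, TGFB2 was -0.25, SMAD2 -0.33, SMAD4 -0.36 and SMAD6 0.086. In TPM with a pseudocount of 0.1, TGFB2 was -0.094. TGFBR2, SMAD7 and PMEPA1 kept their direction in every alternative run, PMEPA1 between 1.34 and 1.78. With a library left out, this follows from their position above both scramble libraries. Depth was alike in all libraries. The cause of these turns was not tested.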
